A study of Mus musculus with 21 samples.

Results

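The 5C library is a single RNA sequencing library of mouse embryonic fibroblasts (MEFs) that carried the control constructs Flag and shLuc. It was compared here with 2 other MEF libraries, so that the comparison rests on 3 of the 21 libraries of the series and on 1 library per group. The 21 libraries are 7 MEF libraries, in 1 table, and 14 libraries of cells given the reprogramming factors Sox2, Klf4, Oct4 and Myc (SKOM cells), grown with or without vitamin C. All MEFs came from 13.5-day ICR embryos, were at passage 2 and were infected for 48 hours with retrovirus. The first reference was the MEF library with the same constructs, Flag and shLuc, a short hairpin named for luciferase. The second was the library labelled Dnmt1, an infection with the maintenance DNA methyltransferase. Its Dnmt1 value was 975, beside 957 in the Flag and shLuc reference, so the label was not matched by a higher Dnmt1 value, and both references are used as MEFs close to the unperturbed state. The other 4 MEF libraries carried shDnmt1, shp53, shp53 with shDnmt1, or Tet1-CD. What 5C stands for is not given in the sources used here, and its day 4 is known only from the name of the data column.

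Genes were compared by the log2 ratio of the deposited value plus 5, and a gene is called higher or lower below where the 5C value lay at least 2-fold above or below both references. With 1 library per group there is no replicate error and no p-value. The spread between the 2 references, and the range of the 6 other MEF libraries, are given beside the results. Neither measures the error of the single 5C library. Both ratios share the 5C library, so the second reference does not repeat the measurement of the 5C cells. Whether the libraries came from separate animals or cultures is not stated.

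Fibroblasts are the mesenchymal cells that make and remodel the collagen matrix. In culture they often take on a contractile state, in which transforming growth factor beta (TGF-beta), serum response factor and the YAP and TAZ coactivators drive genes of the actin cytoskeleton and secreted signals such as Ctgf. Viral nucleic acids or interferon drive a different program, in which a complex with Stat2 and Irf9 binds interferon response elements at antiviral genes.

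The 5C library differed from both references at many genes. Of 9928 gene entries whose mean over the 7 MEF libraries was 50 or more, 1840 (18.5%) were higher and 2611 (26.3%) were lower. The 2 references differed from each other by 2-fold or more at 45 entries (0.453%), with Dnmt1 above at 24 (0.242%) and below at 21 (0.212%). The SD of the log2 ratio over all entries was 1.59 for 5C over Flag+shLuc, 1.58 for 5C over Dnmt1 and 0.22 between the references. The median ratios of the 5C library were -0.15 and -0.15, and 314 entries (3.16%) had opposite directions against the 2 references. At 4-fold, 625 entries (6.30%) were higher and 1081 (10.9%) lower, and at 8-fold 178 (1.79%) and 399 (4.02%). At the threshold, Col6a3 (2198 in 5C, 4401 in Flag+shLuc and 5203 in Dnmt1) was counted as lower and Ttk (75, 156 and 142) was not.

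The 6 MEF libraries that were not 5C lay much closer together. The 5C value was above all 6 at 3645 entries (36.7%) and below all 6 at 4428 (44.6%). It lay at least 2-fold beyond the nearest of the 6 at 1470 entries (14.8%) above and 2018 (20.3%) below. For comparison, the Tet1-CD library lay 2-fold beyond the other libraries, 5C included, at 36 and 16 entries and the shp53 library at 5 and 26. Over the 10238 entries found in all 3 tables, the rank correlation (Spearman, across genes, which are not independent) of the 5C library was 0.60 to 0.67 with the 6 other MEF libraries and 0.53 to 0.60 with the 14 SKOM libraries. The Flag+shLuc library had 0.95 to 0.99 with the other MEF libraries besides 5C and 0.81 to 0.90 with the SKOM libraries. By this measure, across tables that were normalized separately, the SKOM libraries lay nearer to the MEF reference than the 5C library did.

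**Figure D1:**
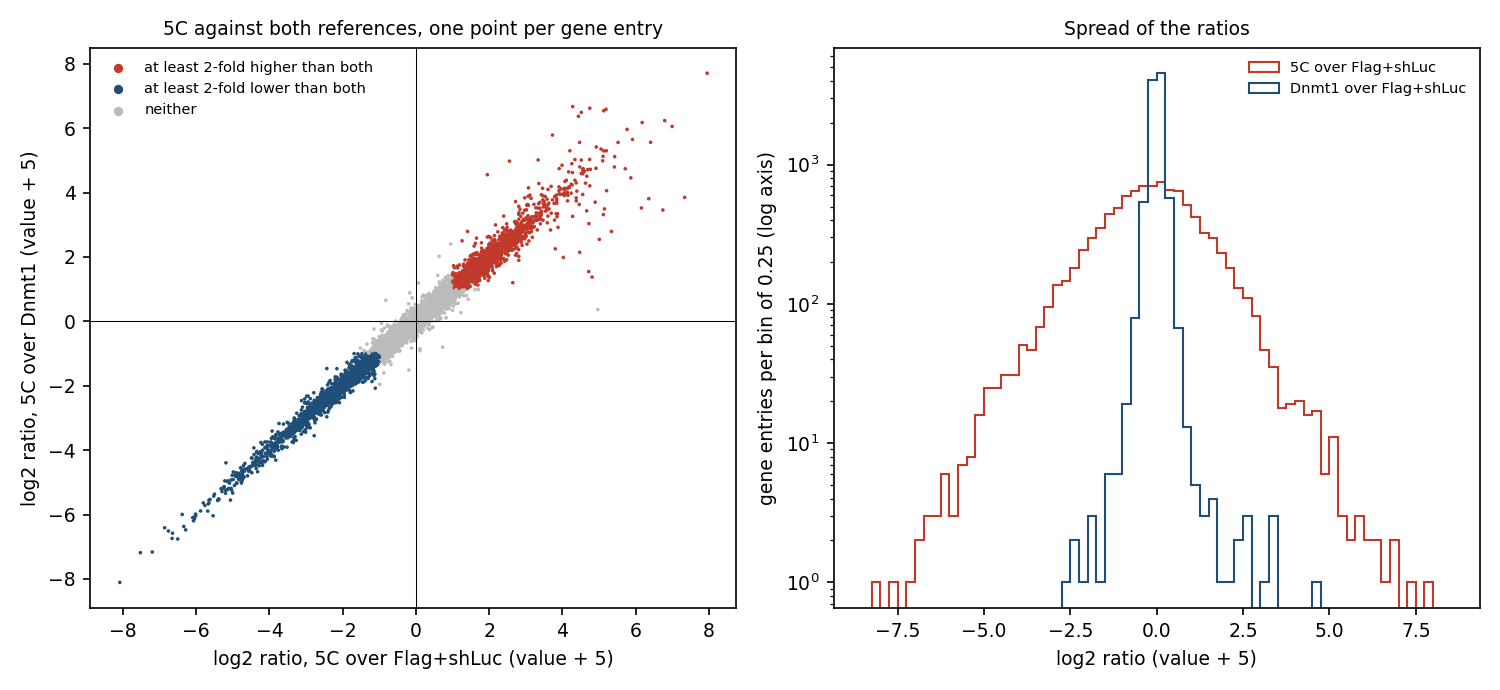
Left, each point is a gene entry, placed by its log2 ratio of 5C over Flag+shLuc (horizontal) and over Dnmt1 (vertical), with higher entries in red and lower entries in blue. Right, the same first ratio (red) beside the ratio between the references (blue), counted in bins on a log axis. The 5C ratios spread with an SD of 1.59, the reference ratios with 0.22.

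Several properties of the 5C library stand beside every result. Sorted from highest to lowest, the libraries of the table hold nearly the same list of values: the first 217 ranks of the 5C library had the same value as in Flag+shLuc, and 65.0% of all ranks were within 5%. A change of all genes together would therefore not show. Lower ranks departed more, with 175 entries listed at 0 in 5C beside 23 to 56 in the others. The 10 highest entries of the library share the value 38803, which makes a ratio at that value a matter of rank only. The depth in reads is unknown.

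The ratio also moved with transcript length. Over 9894 entries with a length (99.7%), the rank correlation with the longest annotated transcript was -0.38 for 5C over Flag+shLuc and 0.02 between the references. In the shortest of 10 equal bins of entries (median transcript 1140 bases) the median ratio was 1.29, and 56.6% were higher and 5.35% lower. In the longest bin (median 8614 bases) the median was -0.85, and 6.06% were higher and 44.5% lower. With GC content the correlation was 0.01. Whether the length relation comes from the cells or from the RNA or library was not tested. Ratios centred on the median of entries of like length are given beside the medians of each gene list.

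**Figure D2:**
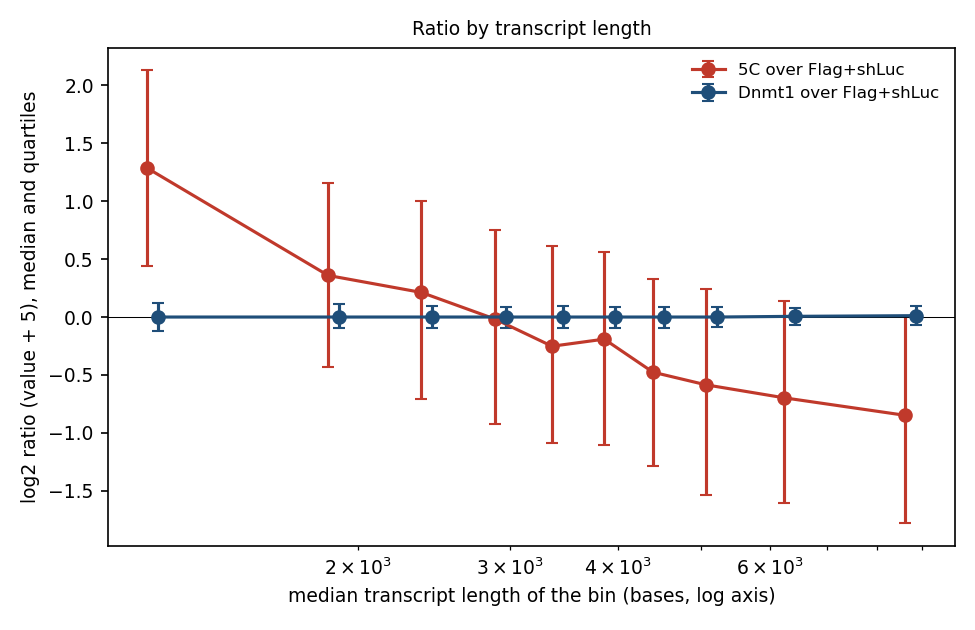
Median log2 ratio (points) and quartiles (bars) in 10 equal bins of entries by transcript length, with the median length of the bin on a log axis. The 5C over Flag+shLuc medians (red) run from 1.29 in the shortest bin to -0.85 in the longest, while the medians between the references (blue, drawn slightly to the right) stay between 0.00 and 0.01.

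The cells kept the markers of fibroblasts. All 10 defining markers were in the table and none was at 0 in the 5C library. Col1a2, a chain of type I collagen, was at 38803 in all 3 libraries, and Vim, the mesenchymal intermediate filament, was at 38803 in 5C and 19841 in both references. The surface marker Thy1 was at 1216 in 5C, 2109 in Flag+shLuc and 2195 in Dnmt1. The summed value of the 10 markers was 146832 in 5C and 53170 to 93759 in the 6 others. The 5C sum holds Col1a2, Col3a1 and Vim at the shared highest value of 38803, a matter of rank only. Of the 10 markers 6 were above all 6 others and 2, Thy1 and Pdgfrb, below, beside 36.7% and 44.6% of all entries. On a longer list of 29 fibroblast and mesenchymal genes the sum was 124823 in 5C and 135610 to 184178 in the 6 others. Markers of other cell types lay on both sides. Of those listed, Sox9 of cartilage progenitors (336, 124 and 108 in 5C, Flag+shLuc and Dnmt1), the neural adhesion molecule Ncam1 (1368, 1262 and 1192) and Fabp4 of fat cells (1251, 50 and 34) were above all 6 other libraries. Acan, of cartilage, was at 0 in 5C, and the cartilage collagen Col2a1 (13, 565 and 455), the endothelial receptor Kdr (11, 139 and 136) and Nes, nestin of neural progenitors (99, 2956 and 2855), were below all 6, as were Tubb3 of neurons and Runx2 of bone. Tubb3 overlaps another entry and is uncertain. None of 5 pluripotent markers was listed. Macrophage and leukocyte markers were also high.

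Of 8 defining macrophage and leukocyte markers, 6 were listed, none was at 0 in 5C, and all 6 were above the 6 other MEF libraries. Over all entries 36.7% were above those 6 libraries. Some of the markers were above by little: Itgam was at 41 in 5C and at most 39 in the others, Csf1r at 111 and 75, and Ptprc at 151 and 110. Itgam and Csf1r had a mean below 50 and are not among the entries that give that share. The summed value of the 6 markers was 4662 in 5C, 239 in Flag+shLuc, 974 in Dnmt1 and 106 to 1421 over the 6 others. Lyz2, the lysozyme of myeloid cells, was at 2964 in 5C, 129 in Flag+shLuc and 666 in Dnmt1. C1qa, a chain of the first complement component, was at 486 in 5C, 1 in Flag+shLuc and 30 in Dnmt1. On a longer list of 20 such genes, 9 were listed, 7 passed the filter on low values, and 5 of these were higher, beside 18.5% of all entries (median log2 ratios 4.47 and 2.79, or 3.68 and 2.24 centred on length). C1qa, Laptm5 and Mrc1 passed only through their 5C value and so had to differ. Of the 4 whose mean over the 6 other libraries was itself 50 or more, 2 were higher (medians 2.95 and 1.56). The references themselves differed on these 7 by a median of 1.23. In a bulk sample, more cells of a type and more RNA per cell cannot be told apart.

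The 15 genes with the highest ratios, ranked by the smaller of the 2, included several matrix and secreted proteins. Of these, Mmp3, Angptl4, Mdk, A4galt, Cst6 and Ifit3 had a mean below 50 over the 6 other MEF libraries. They passed the filter on low values only through their 5C value and so had to differ. Mmp3, stromelysin, which cuts several matrix proteins (chromosome 9, 7445822 to 7455972, mm10), had the largest ratio. Its value was 10854 in 5C, 39 in Flag+shLuc and 47 in Dnmt1, with 12 to 63 over the 6 others, and its log2 ratios were 7.95 and 7.71. Lum and Dcn are neighbours on chromosome 10 (97565501 to 97572703 and 97479500 to 97518162) and encode lumican and decorin, small proteoglycans that bind collagen fibrils. Lum was at 3258 in 5C, 84 in Flag+shLuc and 78 in Dnmt1, with 71 to 100 over the 6 others. Dcn was at 8059 in 5C, 229 in Flag+shLuc and 226 in Dnmt1, with 194 to 276 over the 6 others. For all 3 genes the 5C value stood far above the 6 others, whose range was narrow for Lum and Dcn.

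Others of the 15 were a receptor, a growth factor, a protease inhibitor and selenoproteins. Agtr2, an angiotensin receptor, was at 6727 in 5C, 119 in Flag+shLuc and 103 in Dnmt1. The plasma selenoprotein Sepp1 was at 6680, 141 and 137, in the same order, and the small selenoprotein Sepw1 at 15088, 496 and 554. Mdk, the heparin-binding growth factor midkine, was at 1587, 43 and 34. Angptl4, an inhibitor of lipoprotein lipase, was at 937, 22 and 19, and Cst6, a cystatin that inhibits cysteine proteases, at 550, 8 and 15. Log2 ratios over Flag+shLuc of these genes ran from 4.91 for Sepw1 to 5.76 for Agtr2. A4galt, a glycolipid synthase, Cpxm1 of the carboxypeptidase family and Ndufa2, a subunit of respiratory complex I, had ratios of 5.10, 4.92 and 5.42. The other genes of the 15, Oasl2, Bst2 and Ifit3, are interferon-stimulated.

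The 15 genes with the lowest ratios included contractile and signalling genes. Cnn1, calponin of smooth muscle (chromosome 9, 22099281 to 22109630), was at 12 in 5C, 1708 in Flag+shLuc and 1813 in Dnmt1, with 893 to 1813 over the 6 others. Its log2 ratios were -6.65 and -6.74. Inhba, the activin subunit, was at 4 in 5C, 576 in Flag+shLuc and 565 in Dnmt1, and Dusp1, a phosphatase that switches off MAP kinases, at 3, 619 and 706. In each of these the 5C value lay far below all 6 others. Masp1, a protease of the complement lectin pathway, and Tnfrsf11b, the decoy receptor osteoprotegerin, were listed at 0 in 5C. Their Flag+shLuc values were 729 and 289. In all, 61 of the lower entries were listed at 0 in the 5C library.

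Other genes among the lowest have varied roles. Pom121, of the nuclear pore, was at 2 in 5C, 695 in Flag+shLuc and 664 in Dnmt1. Tfdp1, the dimer partner of E2F factors, was at 6 in 5C and 746 in both references. Arid5b, Ston1 and Ankrd52 had log2 ratios over Flag+shLuc between -6.04 and -6.01. Map4 and Prss23os overlap other entries and are uncertain. Map4, of microtubules, was at 2, 1280 and 1012 in 1 entry (ENSMUSG00000103508) and at 3540, 2971 and 3079 in another (ENSMUSG00000032479), so the gene as a whole was not low. Prss23os lies across Prss23 (729 in 5C and 3074 in both references), and its reads cannot be told apart from that gene's without strand, which is not given in the sources used here.

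**Figure D3:**
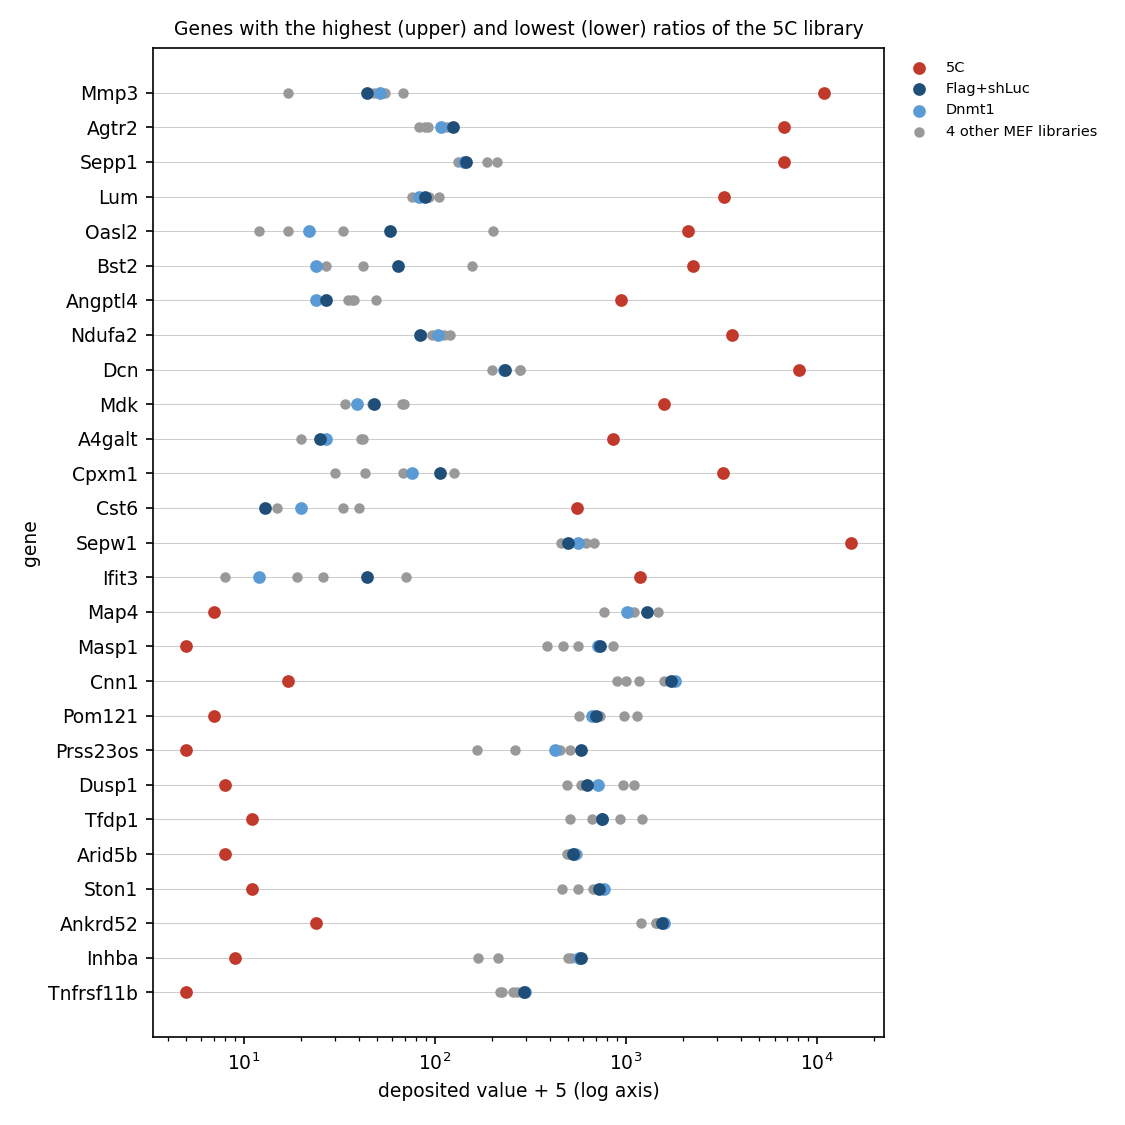
Deposited value plus 5 on a log axis for the 15 highest genes (upper rows) and 12 of the 15 lowest (lower rows), with 5C in red, Flag+shLuc in dark blue, Dnmt1 in light blue and the 4 other MEF libraries in grey. The 6 other libraries cluster for most genes while the red point stands apart. The interferon genes Oasl2, Bst2 and Ifit3 are among the genes where the other libraries also spread, as they do for Cpxm1 and Mmp3.

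TGF-beta targets and contractile genes were lower as a group. Of 28 symbols on the list, which hold Ctgf and Cyr61 under an older and a newer name, 26 were measured, of which 21 were lower and 1 was higher, beside 26.3% lower and 18.5% higher over all entries. Their median log2 ratios were -3.14 over Flag+shLuc and -3.19 over Dnmt1, beside -0.15 over all entries, and -2.83 and -2.76 with ratios centred on transcript length. The 5C value was below all 6 other MEF libraries for 23 of the 26, beside 44.6% of all entries. The shares of 26.3% and 18.5% are also the ones against which the counts of the lists below stand. For counts beyond all 6 other libraries the shares are 44.6% below and 36.7% above. The ligand genes Tgfb2 and Tgfb3 were lower (207 against 531 and 535, and 363 against 1377 and 1350, in 5C, Flag+shLuc and Dnmt1). Tgfb1 was at 366, 354 and 333, within the range of the others.

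Secreted targets had large ratios. Thbs1, thrombospondin, was at 758 in 5C and at the shared highest value of 38803 in both references. Ctgf, connective tissue growth factor, was at 539 in 5C and 12464 in both, and its relative Cyr61 at 330, 4391 and 4249 in 5C, Flag+shLuc and Dnmt1. All of these lay below the lowest of the 6 other libraries. Ankrd1, a common reporter of YAP activity, was at 15, 1113 and 990. The feedback inhibitors Smad7 and Skil were at 42, 550 and 526, and at 46, 447 and 435.

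Actin and its partner proteins are on the same list. Acta2, alpha smooth muscle actin, was at 3990 in 5C and 38803 in both references, with 19827 as the lowest of the 6 others. Tagln, transgelin, was at 1179 in 5C, 9036 in Flag+shLuc and 10832 in Dnmt1, and Myl9, a regulatory light chain of myosin, at 375, 3316 and 3447. Tpm1, a tropomyosin that lies along actin filaments, was at 2748 in 5C and 15113 in both. Tpm2, another tropomyosin, was not lower by the rule (5617 in 5C, 7650 in both references). The gene that went the other way was Tgfbi, a secreted adhesion protein, at 1352, 190 and 176. Actg1, cytoplasmic gamma actin and not on the list, was at 2956 in 5C and 38803 in both references and was picked after its value was seen.

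The promoters of this group were searched for the CArG box, the binding motif of serum response factor, and for GGAATG, the core motif of TEAD factors, on both strands of the 250 bases before the gene start (RefSeq, GRCm38.p6). The promoter table matched 7894 of the analysed genes, 375 of them through a synonym, and 12 of the 21 lower genes. A CArG box was in 2 of the 12, beside 1.17% of the 7894 and 1.39% of all 27025 promoters. GGAATG was in 5 of the 12, beside 10.1% and 12.7%, and no promoter of the 12 held both. Over all 2053 lower genes with a promoter entry, listed or not, the shares were 1.70% for the CArG box and 10.3% for GGAATG. The list was drawn by known function, so its shares describe the list and not the 5C library. Ctgf and Thbs1 are among those without an entry. Shown 5′ to 3′ on the strand of the gene, with the motif in capitals, are both promoters with a CArG box and the one with a pair of GGAATG. They are Myl9 on the plus strand at chr2:156775214-156775463, Cnn2, a calponin, on the plus strand at chr10:79988350-79988599, and Ankrd1 on the minus strand at chr19:36119845-36120094. A match describes letters and not a bound site.
Myl9: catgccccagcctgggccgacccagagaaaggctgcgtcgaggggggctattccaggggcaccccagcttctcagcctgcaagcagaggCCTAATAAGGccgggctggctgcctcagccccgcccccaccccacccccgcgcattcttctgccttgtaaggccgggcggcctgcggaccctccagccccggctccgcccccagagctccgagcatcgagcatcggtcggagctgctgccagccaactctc
Cnn2: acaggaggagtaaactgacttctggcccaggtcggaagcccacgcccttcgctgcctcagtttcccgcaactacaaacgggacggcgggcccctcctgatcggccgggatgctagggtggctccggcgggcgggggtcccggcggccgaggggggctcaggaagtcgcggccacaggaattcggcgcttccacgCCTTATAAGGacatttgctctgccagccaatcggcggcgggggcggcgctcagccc
Ankrd1: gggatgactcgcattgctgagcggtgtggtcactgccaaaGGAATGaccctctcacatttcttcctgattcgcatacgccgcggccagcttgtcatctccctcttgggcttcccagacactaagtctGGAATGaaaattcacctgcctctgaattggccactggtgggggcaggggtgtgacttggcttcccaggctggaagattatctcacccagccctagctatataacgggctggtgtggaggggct

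Many interferon-stimulated genes were higher. Of 36 genes, 26 were listed and 23 passed the filter on low values, of which 19 were higher and 1 was lower. The median log2 ratios were 3.06 and 3.64, and 2.88 and 3.76 with ratios centred on transcript length. The 5C value was above all 6 other MEF libraries for 22 of the 23, beside 36.7% of all entries. However, 8 of the 23, among them Ifit1, Ifit3, Isg15 and Irf7, passed only through their 5C value and so had to differ. Of the 15 genes whose mean over the 6 other libraries was itself 50 or more, 11 were higher and 1 was lower, with medians of 2.36 and 2.74, and 14 were above all 6. Over all 9730 entries that pass that filter, 16.3% were higher and 27.6% lower, and 3363 were above all 6. The summed value of the 23 genes was 18721 in 5C, 2747 in Flag+shLuc, 1662 in Dnmt1 and 5726 in Tet1-CD, the next highest library.

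The promoters of the 4 highest interferon genes, ranked by the smaller of their 2 ratios, were read for a core of the interferon response element, the letters GAAA, any 2 bases, and GAAA again. Among the 19 higher genes 13 had a promoter entry, and 6 of these (46.2%) held the motif on either strand, beside 2.47% of the 7894 matched genes and 3.06% of all 27025 promoters. The 250 bases before the start are shown 5′ to 3′ on the strand of the gene, with each match in capitals (TTTC, 2 bases, TTTC is the same motif on the opposite strand). Bst2 lies on the minus strand at chr8:71537473-71537722 and holds overlapping copies. Ifit3 on the plus strand at chr19:34583279-34583528 and Ifit1 on the plus strand at chr19:34640639-34640888 each hold a pair. Oasl2 on the plus strand at chr5:114896684-114896933 has no match in this window.
Bst2: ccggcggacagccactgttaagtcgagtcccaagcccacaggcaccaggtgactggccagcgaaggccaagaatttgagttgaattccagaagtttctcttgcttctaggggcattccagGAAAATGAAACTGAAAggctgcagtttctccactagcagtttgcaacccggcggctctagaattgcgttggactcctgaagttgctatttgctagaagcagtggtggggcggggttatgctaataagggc
Ifit3: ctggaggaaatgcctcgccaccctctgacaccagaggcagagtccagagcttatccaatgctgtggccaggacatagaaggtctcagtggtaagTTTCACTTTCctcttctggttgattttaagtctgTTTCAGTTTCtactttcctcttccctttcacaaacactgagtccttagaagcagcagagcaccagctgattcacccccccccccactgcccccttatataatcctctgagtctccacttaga
Ifit1: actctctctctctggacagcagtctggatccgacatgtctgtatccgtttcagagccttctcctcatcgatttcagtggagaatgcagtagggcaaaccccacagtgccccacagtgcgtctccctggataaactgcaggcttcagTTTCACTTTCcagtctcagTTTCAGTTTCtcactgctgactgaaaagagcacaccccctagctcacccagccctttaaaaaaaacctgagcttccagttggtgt
Oasl2: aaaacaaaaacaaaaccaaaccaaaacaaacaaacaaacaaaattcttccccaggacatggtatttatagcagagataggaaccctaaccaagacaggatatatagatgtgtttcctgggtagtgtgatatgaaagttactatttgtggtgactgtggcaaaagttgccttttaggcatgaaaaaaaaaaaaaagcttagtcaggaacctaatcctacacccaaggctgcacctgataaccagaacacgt

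Effectors that act on viruses had the largest ratios. Bst2, tetherin, which holds budding virus at the membrane, was at 2229 in 5C, 59 in Flag+shLuc and 19 in Dnmt1, with 19 to 152 over the 6 others. Oasl2, of the oligoadenylate synthetase family, was at 2109, 53 and 17, with 7 to 197 over the others. Ifit1 and Ifit3, which bind foreign RNA or partner proteins that do, were at 1343, 54 and 10, and at 1175, 39 and 7. Isg15, a ubiquitin-like modifier, was at 903, 37 and 6. None of these values in 5C overlapped the other libraries, and 36.7% of all entries also lay above all 6.

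Signal transducers and sensors were also higher, by less. Stat2, a transcription factor of the interferon signal, was at 1152 in 5C, 215 in Flag+shLuc and 115 in Dnmt1. Irf7, the regulator that amplifies the response, was at 341, 54 and 6. The RNA sensor Ddx58 was at 948, 460 and 334, just above the Tet1-CD value of 872. Irf9, Trim25 and the sensor Ifih1 were not higher by the rule, with log2 ratios over Flag+shLuc of 0.59, 0.77 and 0.91. Ifit2, a relative of Ifit1, was lower (25, 157 and 131) and went against its family.

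The other MEF libraries were not level in this program. The median ratio of Dnmt1 over Flag+shLuc on the 23 genes was -0.83, and 9 of them were at least 2-fold lower in Dnmt1. Tet1-CD was the highest of the 6 other libraries for 22 of the 23. The macrophage and leukocyte markers given above moved in the same library as the interferon genes, and their part in the interferon result was not tested.

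**Figure D4:**
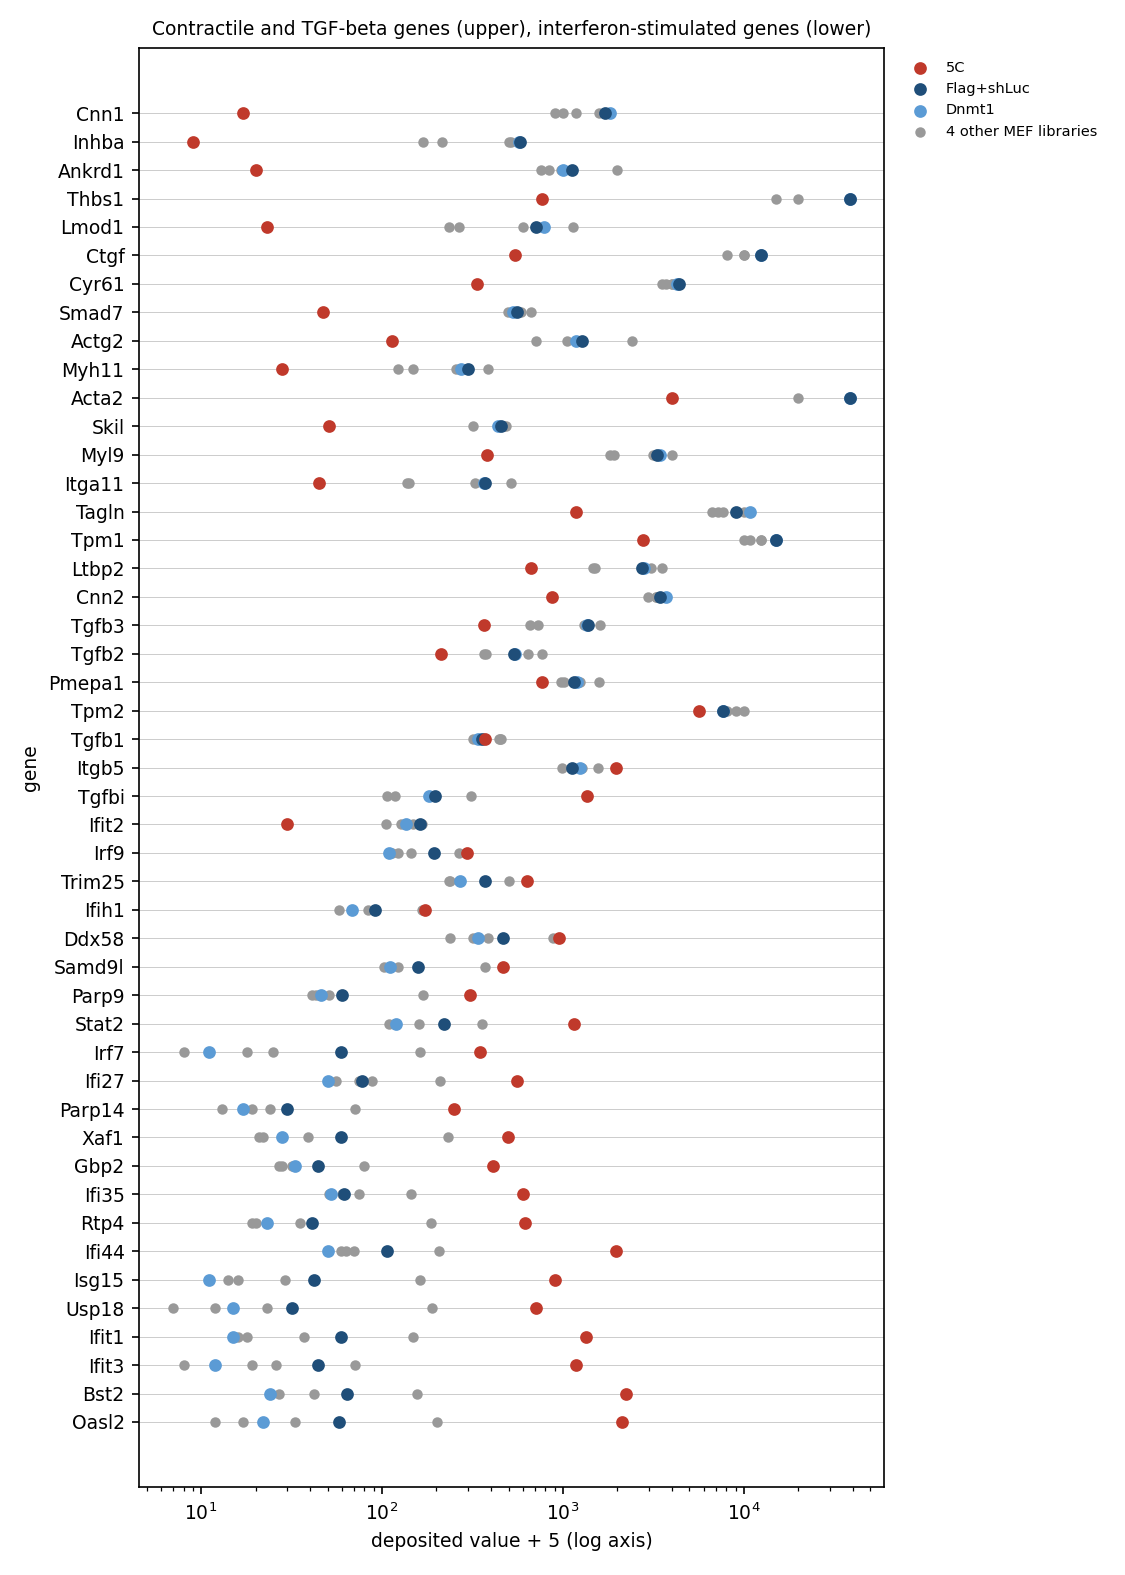
Deposited value plus 5 on a log axis for TGF-beta and contractile genes (25 from Cnn1 to Tgfbi) and interferon-stimulated genes (22 from Ifit2 to Oasl2), colours as in the plot of the highest and lowest genes. The red 5C points lie below all other libraries for 22 of the 25 genes of the first group and above all of them for 21 of the 22 of the second. Over all entries the shares are 44.6% below and 36.7% above.

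Immediate early genes, which growth factors and serum induce within minutes, were low. Of 22 measured, 17 were lower and none was higher, beside 26.3% and 18.5% of all entries, with medians of -2.74 and -2.66 (-2.69 and -2.72 centred on length). Fos was at 19 in 5C, 365 in Flag+shLuc and 379 in Dnmt1, and Fosb at 4, 447 and 417. The nuclear receptor Nr4a1 was at 10, 491 and 451, and Srf, which encodes serum response factor, at 73, 726 and 735. These 5C values lay below all 6 other libraries, as 19 of the 22 did, beside 44.6% of all entries. Of the 14 lower genes with a promoter entry 3 held a CArG box (21.4%), beside 1.17% of all matched genes and 1.70% of all lower genes. As the list was drawn by known function, this share describes the list and not the 5C library. Jund and Dusp6 did not share the direction, with log2 ratios over Flag+shLuc of 0.80 and 0.42.

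Genes responsive to cyclic AMP overlap that list in part. Of 16 measured, 12 were lower and 1 was higher (medians -2.80 and -2.80, or -2.31 and -2.31 centred on length). Ptgs2, the inducible cyclooxygenase, was at 181 in 5C, 3541 in Flag+shLuc and 3081 in Dnmt1. Akap12, a scaffold for protein kinase A, was at 415 in 5C and 5625 in both references. The higher gene was Rgs2, a regulator of G protein signalling, at 379, 27 and 41. Rgs2 passed the filter on low values only through its 5C value and so had to differ. Of the 15 others 12 were lower and 0 higher. Phosphodiesterases Pde4b, Pde4d and Pde10a, which degrade cyclic AMP, were among the lower genes.

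Growth factor signalling genes were mostly lower too. On the list of Fgf, Pdgf and Ras-MAPK feedback genes, 12 of 23 were lower and 1 was higher, Etv5, with medians of -1.63 and -1.62 (-1.14 and -1.13 centred on length). The ligand Hbegf was at 32 in 5C, 983 in Flag+shLuc and 888 in Dnmt1, and Fgf7 at 45, 1300 and 1436. The phosphatase Dusp4 was at 1, 303 and 351. The receptor Fgfr1 did not reach the rule (662, 1256 and 1286), whereas Fgfr2 was lower (113, 361 and 357).

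Bone morphogenetic protein (BMP) and Notch genes were on the low side. Of 19 BMP genes 10 were lower and none was higher (medians -1.40 and -1.38, or -1.01 and -1.05 centred on length). The secreted antagonists Grem1 (242 in 5C, 1442 in Flag+shLuc, 1494 in Dnmt1) and Fst (170, 1787, 1737) were among them. The target genes Id1 and Id3 were at 511, 484 and 434 and at 402, 410 and 413, inside the range of the 6 other libraries. Their relative Id4 was lower at 6, 149 and 159, as was Smad7 at 42, 550 and 526. Of 8 Notch genes 6 were lower and 1 was higher, with Notch1 at 6, 221 and 256. The higher gene, Hes6, passed the filter on low values only through its 5C value and so had to differ. Of the 7 others 6 were lower and 0 higher. The Notch medians of -1.47 and -1.51 became -0.75 and -0.78 with ratios centred on length.

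Mitotic genes were lower, with exceptions. Of 33 measured G2/M genes, 27 were lower and none was higher (medians -1.88 and -1.73, or -1.53 and -1.56 centred on length). Plk1, the mitotic kinase, was at 14 in 5C, 385 in Flag+shLuc and 359 in Dnmt1. Anln, a scaffold of the cleavage furrow, was at 25, 1124 and 1047. Mki67, the proliferation antigen, was at 490, 1590 and 1630, and Cdk1, the mitotic driver kinase, at 135, 509 and 517. Each of these 5C values was below the lowest of the 6 other libraries. Birc5 (434, 435 and 406) and Ccnb2 (216, 240 and 236) were level with the references, and Cks2 was at 396, 235 and 226.

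Replication genes were split. Of 36 G1/S genes 16 were lower and 5 were higher, with medians of -0.76 and -0.58 (-0.75 and -0.75 centred on length). Rrm2, a subunit of ribonucleotide reductase, was at 37 in 5C, 1167 in Flag+shLuc and 1175 in Dnmt1. Mcm3 of the replicative helicase was at 100, 636 and 527, while Mcm6, of the same complex, was at 461, 559 and 504. Tyms, thymidylate synthase, went the other way at 1394, 366 and 364, and Rfc4, of the clamp loader, at 284, 28 and 34. Rfc4 overlaps another entry and is uncertain. Rfc4 and Gins1 passed the filter on low values only through their 5C value and so had to differ. Of the 34 other genes 3 were higher and 16 lower.

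Some regulators of the cell cycle had large ratios. On the list of G1 cyclins and cell cycle inhibitors, 4 of 16 were higher and 7 lower, beside 18.5% and 26.3% of all entries. The medians were -0.56 and -0.54, or -0.49 and -0.46 centred on length. The cyclins Ccnd1 and Ccnd2 were lower (1142, 7153 and 6682, and 604, 4249 and 4391, in 5C, Flag+shLuc and Dnmt1). The inhibitors Cdkn2a and Cdkn1c were higher, at 1717, 92 and 109 and at 2049, 132 and 127, whereas the inhibitor Cdkn1b was lower at 72, 191 and 205. The highest of the 6 other libraries reached 171 for Cdkn2a and 227 for Cdkn1c. Cdkn1a, the inhibitor that p53 induces, was at 1712, 2386 and 2327 and did not reach the rule. Of 28 p53 target genes 6 were higher and 9 lower (medians -0.41 and -0.46, or -0.57 and -0.53 centred on length), shares close to the 18.5% and 26.3% of all entries. Trp53 itself was at 647 in 5C and 1008 in both references.

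Of the genes of the study's constructs and factors, Dnmt1, Myc and Klf4 were lower, and Trp53, given above, did not reach the rule. Dnmt1 was at 100 in 5C, 957 in Flag+shLuc and 975 in Dnmt1, and the shDnmt1 library, the lowest of the other 6, had 208. Myc was at 27, 839 and 933, and Klf4 at 22, 526 and 459, both below the 6 other libraries. These are the only 2 of the 4 factors that were in the MEF table. Among 16 DNA methylation enzymes and readers 5 were lower and 2 higher, beside 26.3% and 18.5% of all entries, with medians of -0.37 and -0.42 (-0.42 and -0.45 centred on length). Apobec1 passed the filter on low values only through its 5C value, and of the 15 others 1 was higher and 5 lower.

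**Figure D5:**
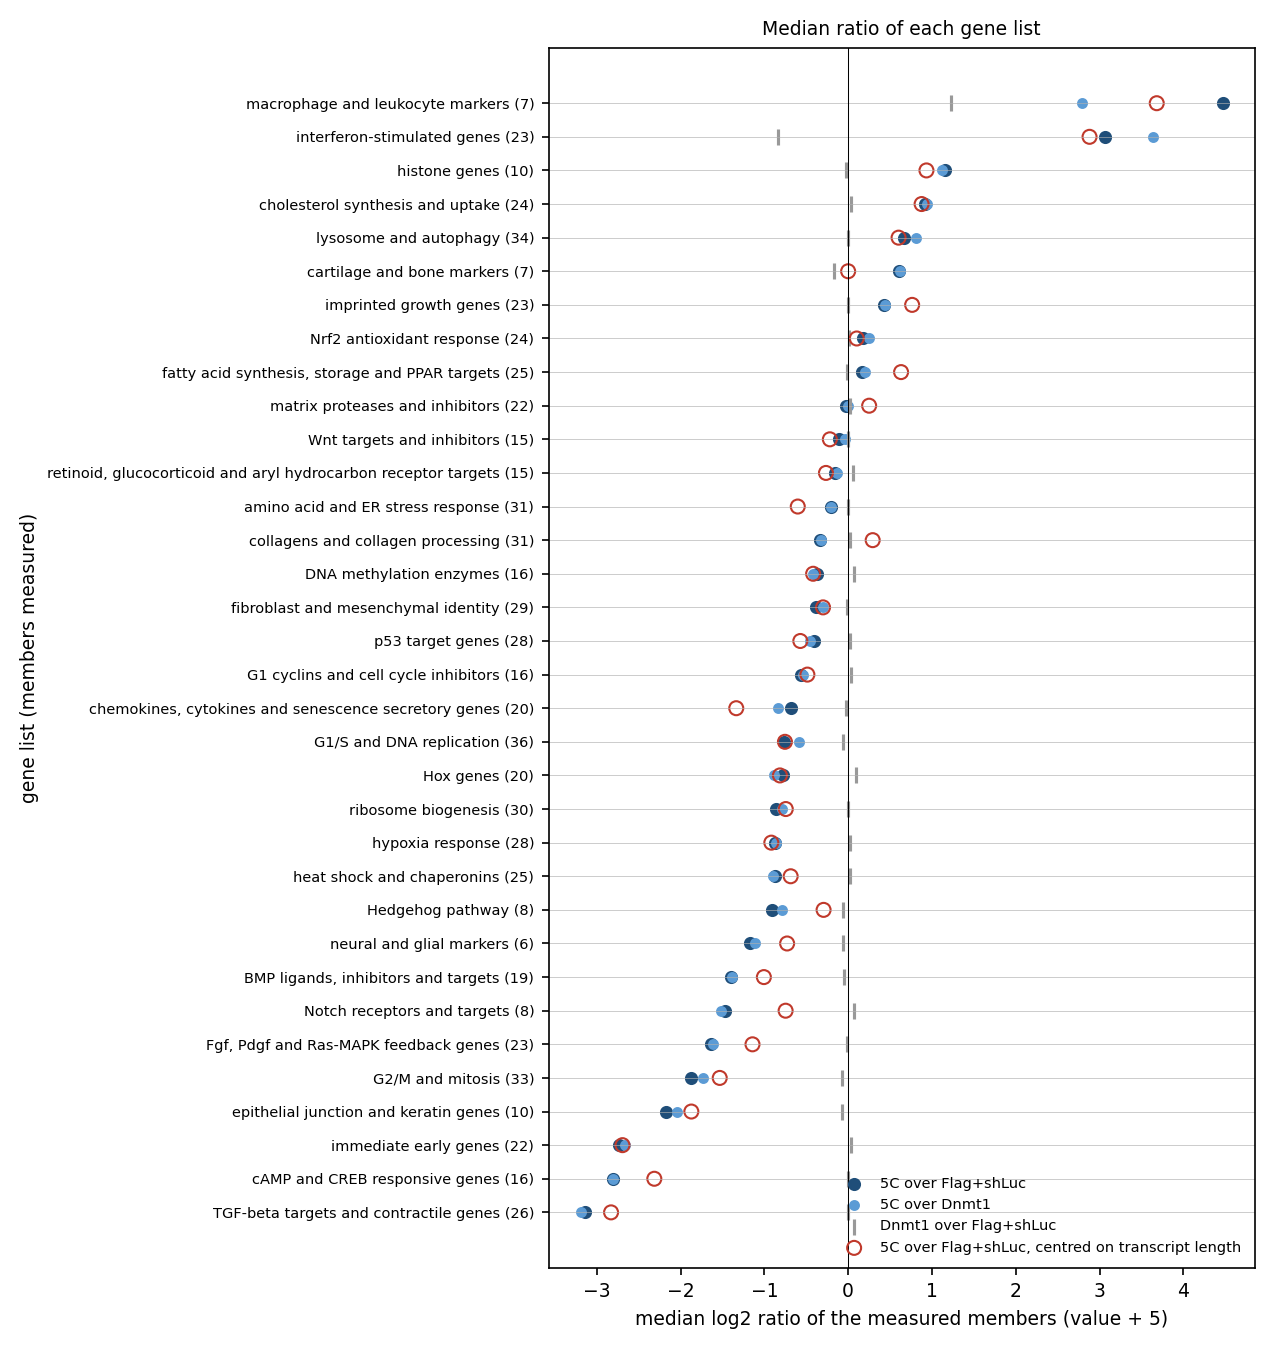
Median log2 ratio of the measured members of each gene list with at least 5 of them (number in brackets), for 5C over Flag+shLuc (dark blue), 5C over Dnmt1 (light blue), Dnmt1 over Flag+shLuc (grey) and the first ratio centred on transcript length (open red). Of 34 lists, 12 have both 5C medians at least 2-fold from 0, and the grey marks leave 0 clearly for the macrophage (1.23) and interferon (-0.83) lists.

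Fibroblast and collagen genes, as lists, were called about as often as all entries (18.5% higher and 26.3% lower). Of 29 fibroblast and mesenchymal genes 6 were higher and 8 lower (medians -0.38 and -0.30, or -0.30 and -0.26 centred on length). Fbln2, a fibulin, was at 2651 in 5C and 38803 in both references, whereas its relative Fbln1 was higher at 1527, 315 and 333. Nid1, which links laminin to collagen in basement membrane, was at 886, 9988 and 9045. Of 31 collagen and collagen-processing genes 6 were higher and 9 lower. Their medians of -0.33 and -0.33 turned to 0.29 and 0.29 with ratios centred on length, so the group has no direction that holds under both scalings.

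Individual collagens nonetheless differed by much. Col3a1, the type III chain, was at 38803 in 5C, 5387 in Flag+shLuc and 6727 in Dnmt1. Col18a1 was at 2951, 314 and 337 and Col15a1 at 293, 34 and 36. Col15a1 passed the filter on low values only through its 5C value and so had to differ. Col12a1, a fibril-associated chain, was at 1163 in 5C and 15086 in both references. Enzymes and chaperones of collagen lay on both sides. Lox, which crosslinks it, was at 3715 in 5C and 12500 in both, and Serpinh1, its chaperone, at 2013 and 6696, whereas Adamts2, which trims procollagen, was higher at 727, 72 and 78. The hydroxylases P4ha1 (1134, 1079 and 1103) and Plod2 (1376, 1733 and 1601) were within the range of the 6 others. Col1a1 was at 10838 in 5C and 15100 in both, within the range of the 6 others.

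On the list of 22 matrix proteases and inhibitors, 8 were higher and 8 lower, beside 18.5% and 26.3% of all entries. Its medians of -0.03 and 0.00 became 0.25 and 0.24 with ratios centred on length. All measured matrix metalloproteinases taken by name, a family picked after values were seen, came to 10, of which 7 were higher and none lower (medians 2.37 and 2.39, or 2.38 and 2.47 centred on length). Mmp3 and Mmp10 passed the filter only through their 5C value, and of the 8 others 5 were higher (medians 2.02 and 2.16). Mmp2, a gelatinase, was at 7669 in 5C, 1230 in Flag+shLuc and 1261 in Dnmt1, and the collagenase Mmp13 at 1988, 114 and 93. Mmp14, the membrane-bound activator of Mmp2, was level at 2109, 2049 and 2109. Plau, an activator of plasminogen, was lower at 153, 992 and 986, as was its receptor Plaur at 19, 489 and 495. Adam12 (118, 1216 and 1331) and Adamts12 (7, 307 and 334), membrane or secreted proteases, were also lower, while their relative Adamts5 (700, 522 and 604) was above all 6 others and did not reach the rule.

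Lysosomal genes were more often higher than lower. Of 34, 12 were higher and none lower by the rule, beside 18.5% and 26.3% of all entries (medians 0.66 and 0.81, or 0.60 and 0.62 centred on length). The 5C value was above all 6 other libraries for 22 and below for 5, beside 36.7% and 44.6% of all entries. Cathepsin Ctsk was at 1956 in 5C, 195 in Flag+shLuc and 216 in Dnmt1. Ctss, a cathepsin of antigen-presenting cells, was at 511, 9 and 26, and ranged from 8 to 67 over the 6 others. Ctss passed the filter on low values only through its 5C value, and of the 33 other genes 11 were higher and 0 lower. Lamp1, a membrane protein of the lysosome, was at 3536, 6709 and 6140, below all 6 others. The macrophage markers were high in the same library, and their part here was not tested.

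Cholesterol synthesis genes were higher more often than lower. Of 24, 10 were higher and 3 lower (medians 0.91 and 0.94, or 0.88 and 0.93 centred on length). Hmgcs1, an early enzyme, was at 4705 in 5C, 1103 in Flag+shLuc and 1193 in Dnmt1, Idi1 at 2799, 570 and 617 and Fdft1, squalene synthase, at 2050, 473 and 484. Fdft1 overlaps another entry and is uncertain.

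Lipid handling genes held some of the larger single ratios. Of 25 on that list 7 were higher and 4 lower, beside 18.5% and 26.3% of all entries (medians 0.17 and 0.20, or 0.63 and 0.56 centred on length). The mean of the 2 medians, 0.18, became -0.30 with a mean of at least 200 and -0.18 where the filter left out the 5C value, so no direction is given for the list. Fabp4, a fatty acid carrier of fat cells and macrophages, was at 1251 in 5C, 50 in Flag+shLuc and 34 in Dnmt1. Fabp4, Angptl4 and Cebpa passed the filter on low values only through their 5C value. Of the 22 others 5 were higher and 4 lower. Lpl, lipoprotein lipase, was at 806, 63 and 67. Of 4 defining adipocyte markers only Fabp4 was listed. Crabp1, a retinoic acid carrier, was at the shared highest value of 38803 in 5C and at 1426 and 1466 in the references.

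Of 23 imprinted growth genes 8 were higher and 6 lower, beside 18.5% and 26.3% of all entries (medians 0.43 and 0.45, or 0.76 and 0.76 centred on length). The noncoding H19 was at 38803 in 5C and 9045 in both references. Dlk1, a membrane protein of the Delta family, was at 7153, 759 and 746, and Mest at 1788, 200 and 196. Igf2, next to H19, was at 15100 in 5C and 9988 in both and did not reach the rule. Igf2r, the receptor that clears it, was lower at 1321, 5203 and 4257.

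Antioxidant genes gave no common direction, with 9 of 24 higher and 5 lower (medians 0.18 and 0.24, or 0.10 and 0.20 centred on length). Fth1, the ferritin heavy chain, was at 38803 in 5C and 3985 in both references, and Gstm1, a glutathione transferase, at 1784, 120 and 123. On the hypoxia list, which holds glycolysis genes, 13 of 28 were lower and 2 higher (medians -0.87 and -0.87, or -0.92 and -0.97 centred on length). Gapdh was at 3990 in 5C and 12476 in both references, and Ldha at 1130, 3059 and 3240. Vegfa, the angiogenic factor, was at 43, 419 and 396. Of the chaperone genes, 10 of 25 were lower and none was higher, beside 26.3% and 18.5% of all entries (medians -0.87 and -0.90, or -0.69 and -0.67 centred on length), among them Hsp90aa1 at 2236, 7669 and 8051.

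Ribosome biogenesis genes were more often lower. Of 30, 13 were lower and none higher by the rule (medians -0.86 and -0.79, or -0.74 and -0.81 centred on length). The 5C value was below all 6 other libraries for 19 and above for 5, beside 44.6% and 36.7% of all entries. Npm1, nucleophosmin, was at 7186 in 5C, 38803 in Flag+shLuc and 19852 in Dnmt1, and Dkc1, of small nucleolar particles, at 82, 591 and 571. Dkc1 overlaps another entry and is uncertain. Ncl, nucleolin, was at 7671 in all 3 libraries. Hox genes, which carry positional identity, were lower for 9 of 20 and higher for none (medians -0.77 and -0.89, or -0.81 and -0.87 centred on length). Without entries that overlap another, which are common in the Hox clusters, the mean of the 2 medians became 0.14, so no direction is given for them. Epithelial junction genes were lower for 9 of 10 (medians -2.18 and -2.04, or -1.87 and -1.82 centred on length), among them the junction scaffold Tjp1 at 193, 1363 and 1362.

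Subunits of the respiratory chain, which have short transcripts, were higher. These families were taken by name after values were seen. Of 40 complex I genes named Nduf, 35 were higher and none lower, with medians of 2.22 and 2.31 and a median transcript of 1216 bases. Centred on length, the medians were 0.89 and 0.88, and 17 were higher. For 12 cytochrome oxidase genes all were higher (2.19 and 2.15), and 5 were after centring (0.86 and 0.73). Cox6c was at 8052 in 5C, 393 in Flag+shLuc and 381 in Dnmt1, and Ndufa4 at 7648, 431 and 471. The 76 mitochondrial ribosomal genes had 45 higher and 2 lower (1.34 and 1.32, or 0.49 and 0.52 centred). For 36 proteasome genes 14 were higher and none lower, and the medians of 0.78 and 0.78 were 0.07 and 0.07 after centring.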

How the data were processed

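The deposited values are whole numbers per gene that the authors had normalized, a score on a scale like read counts, with no depth. Bowtie, RSEM and mm10 appear, without versions, in the submitters' processing notes, and no source used here gives the normalization, the filter on genes or the strand setting. Per the labels' protocols, total RNA taken up in Trizol went into TruSeq RNA libraries. Each entry reached 32 or more in 2 or more MEF libraries, so a gene on in the 5C library alone is not listed. From these scores, log2 ratios of value plus 5 were computed with Python 3.11.15, numpy 2.4.6 and pandas 2.3.3 for 9928 of 11152 entries (mean of at least 50). Rows are entries by Ensembl gene, of which 20 share a symbol with another entry. Transcript lengths came from GENCODE M21. No value column lacked a sample. On simulated data with 200 changed entries the code for the calls recovered all of them, with 0 others. The error of the calls on the deposited values was not tested.

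The members and the 40 gene lists were chosen with earlier results of these data known. Named genes are the 15 highest and 15 lowest by the smaller ratio (leaving out predicted genes and entries with no symbol), up to 4 members per list with the largest ratios (otherwise 2 with the highest mean), the factors, Dnmt1, Trp53 and the cell type markers. Some genes that the rule names are not reported here. Other list members are named for their role, after their values were seen. Alternatives were other pseudocounts (1 and 20), filters, scalings and references. Groups were taken from the sample titles.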

Additional observations from a re-analysis of the deposited data

How the results depend on the processing

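With a mean of at least 200 the counts were smaller because fewer entries were compared: 898 higher, 1739 lower, 7 apart between the references, 1965 above and 2930 below all 6 other MEF libraries. With no filter on low values, 124 entries were apart between the references, in place of 45, and 29 were apart where the filter took the mean of the 6 MEF libraries other than 5C. Otherwise the higher count ran from 1470 to 2120 and the lower count from 2018 to 2961 over the alternatives run. Lists with both medians at least 2-fold from 0 numbered 12, and 7 against the nearest of all 6 other MEF libraries (10 to 13 otherwise). Of 403 list medians none reversed among those at least 2-fold, and 86 moved by more than the spread between the references (0.22). Of 1821 ratios of named genes 1 reversed, Fabp7 at -0.15 with ratios centred on transcript length, and 482 moved; the cause was not tested. Centring each pair on its median raised all ratios by about 0.15 and gave 2120 higher and 2296 lower. The alternatives centred on transcript length, without overlapping entries and with 5C kept out of the filter were chosen after seeing the data. No paired analysis was possible because each group has 1 library, and no library could be left out for the same reason. The depth in reads is unknown, so counting error has no value here.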

Other observations

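Some predicted genes, chosen after their values were seen, were among the highest ratios of the 5C library. They lie in 2 short stretches, on chromosome 2 (98662237 to 98667301) and chromosome 9 (3000282 to 3037848) of mm10. Gm26870 (chromosome 9, 3000282 to 3018084) was at 19852 in 5C, 151 in Flag+shLuc and 294 in Dnmt1. It was at 2752 with shp53 and shDnmt1, 1516 with shp53 and 489 with Tet1-CD. Gm10800 (chromosome 2, 98666547 to 98667301) was at 12503, 108 and 161 in 5C and the references, and at 851 and 623 in the libraries with shp53. The other 4, Gm10715, Gm10718, Gm10801 and Gm11168, had log2 ratios over Flag+shLuc of 5.71 to 6.40. In all 6 the 5C value was above the other MEF libraries, as it was for 36.7% of all entries. Gm10715 and Gm11168 passed the filter on low values only through their 5C value and so had to differ. Reads of genes with near-identical copies can be shared between entries, so single values here are uncertain.

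Among the 10 entries at the shared highest value, 2 were common to the 5C and Flag+shLuc libraries, Col1a2 and the elongation factor Eef1a1. In 5C the others were Col3a1, Crabp1, Fth1, Gdi2, H19, Rplp1, S100a11 and Vim. In Flag+shLuc they were Acta2, Actg1, Bgn, Fbln2, Fn1, Itgb1, Npm1 and Thbs1. Bgn, a proteoglycan, was at 15091 in 5C, and Itgb1, an integrin chain, at 10828.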
